A study of Mus musculus with 14 samples.

Results

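The effect of SirT7 loss was measured in mouse embryonic fibroblasts deprived of glucose, by comparing 3 RNA-seq libraries of SirT7-/- cells with 3 libraries of wild-type cells, all grown in medium without glucose. These 6 libraries were chosen by their labels for genotype and medium, out of 14 in the series. Cells of either genotype had the 129s2 background, were derived at embryonic day 14.5, stood at passage 3 to 4, and spent 18 h in the medium before harvest. The groups are called WT-GS (wild type, glucose-free, n = 3) and KO-GS (SirT7-/-, glucose-free, n = 3), and the other 8 libraries, WT-NT and KO-NT (n = 4 each), are the same genotypes in normal medium. Whether replicates come from different embryos or cultures is not said in the labels, so a p-value here reflects only sample-to-sample spread, which may be technical.

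SirT7 is a member of the sirtuins, enzymes that use NAD to remove acyl groups from proteins or to transfer ADP-ribose to them. It is found mainly in the nucleolus, where it is known for promoting transcription by RNA polymerase I and ribosome production, and it also removes acetyl groups from histone H3 at gene promoters. It has been linked to glucose starvation through modification by ADP-ribose and binding to the histone variant macroH2A1. Cells without glucose lose a source of energy and of sugars for protein glycosylation, and commonly raise chaperones of the endoplasmic reticulum (ER) and lower lipid synthesis.

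The 6 libraries held 59788270 to 85259925 counts each. A position was computed for each over 5161 genes called between media in wild-type cells, scaled so that WT-NT averages 0 and WT-GS averages 1. The WT-GS libraries lay at 0.99 to 1.01, KO-GS 1 at 0.908 and KO-GS 2 at 0.904. The library labelled KO-GS 3 lay at 0.161, near the 7 normal-medium libraries from -0.0731 to 0.112, whereas the library labelled KO-NT 4 lay at 0.878. Txnip, a gene induced by glucose, had 118 CPM (a library's counts relative to its TMM-scaled total) in the library labelled KO-GS 3 and 1.58 to 8.91 CPM in the other 5. The profile of that library therefore goes against its medium label. Calls, and the counts of most lists, are given for all 6 libraries and for the 5 without it. Some changes of single genes are given for the 6 libraries alone.

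**Figure D1:**
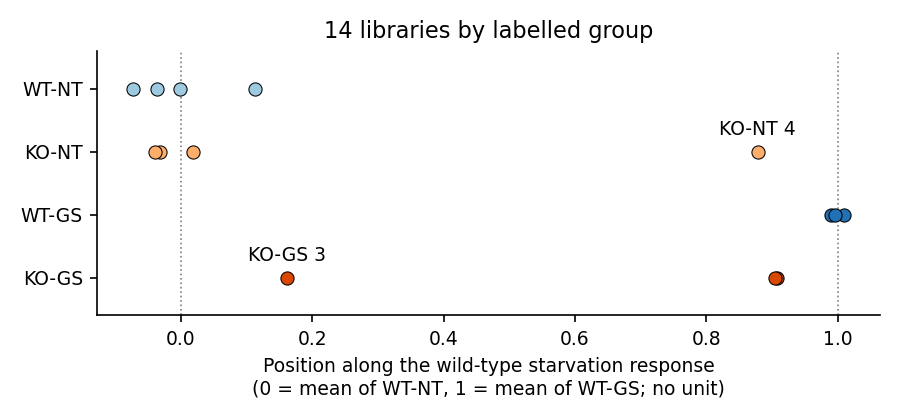
Each point is 1 library, by labelled group (vertical) and by position along the wild-type starvation response (horizontal, no unit, scaled so that WT-NT averages 0 and WT-GS averages 1). KO-GS 1 and 2 sit at 0.908 and 0.904, KO-GS 3 as labelled at 0.161, and KO-NT 4 as labelled at 0.878.

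Between the genotypes in glucose-free medium, Sirt7 was the 1 gene that passed the edgeR test in the 6 libraries. That is 0.00668% of 14972 genes tested, at an adjusted p (Benjamini-Hochberg) under 0.05. The next smallest adjusted p was 0.81, and 490 genes (3.27%) had an unadjusted p under 0.05. In the 5 libraries 4 of 15156 genes (0.0264%) passed, 3 of them lower in SirT7-/- cells (0.0198%; Sirt7, Cldn12 and Raver1-fdx1l) and 1 higher (0.0066%; Fdx1l). There 395 genes (2.61%) had an unadjusted p under 0.05. DESeq2 called 18 genes (0.115%) in the 6 libraries and 31 (0.2%) in the 5, of which 11 were shared. Because so few genes passed, groups of genes are described below by how many members were apart, meaning that no library of one genotype overlapped any of the other. A gene apart in the 6 libraries is apart in the 5 by construction, so its place among the 5 is no repeat of the result. Over all genes tested, 4.82% were apart and higher and 6.18% apart and lower in SirT7-/- cells in the 6 libraries, and 7.3% and 9.58% in the 5. This split depended on scaling. With library totals in place of TMM factors, 1058 genes were apart and higher and 558 lower in the 6 libraries, against 721 and 926 with TMM. In the 5 libraries the numbers were 1609 and 897 against 1106 and 1452.

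Sirt7 had 17.9, 17.4 and 17.4 CPM in WT-GS 1 to 3, and 0.291, 0.479 and 0.391 CPM in KO-GS 1 to 3. The groups were far apart, and the library labelled KO-GS 3 was as low as the other 2, as its genotype label says. The log2 change was -5.51 ± 0.222 (SE; edgeR adjusted p = 0.00225) in the 6 libraries and -5.52 ± 0.251 (adjusted p = 0.0192) in the 5. In normal medium Sirt7 had 17.8 to 22.9 CPM in WT-NT and 0.549 to 1.45 CPM in KO-NT.

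Pcyt2 lies directly next to Sirt7 in the RefSeq annotation of GRCm38.p6, downstream on the same strand, and encodes an enzyme of phosphatidylethanolamine synthesis. Its level was 16, 15.8 and 16.8 CPM in WT-GS 1 to 3 and 7.04 and 6.25 CPM in KO-GS 1 and 2. The library labelled KO-GS 3 had 17.8 CPM, above all wild-type libraries, so the groups overlapped only through it. The log2 change was -0.65 ± 0.399 in the 6 libraries (edgeR adjusted p = 0.81) and -1.28 ± 0.109 in the 5 (adjusted p = 0.123), and DESeq2 gave an adjusted p of 6.82e-22 in the 5. In normal medium Pcyt2 had 57.2 to 89.8 CPM in WT-NT, 14.3, 16.1 and 15 CPM in the first 3 KO-NT libraries and 7.11 CPM in the library labelled KO-NT 4. Every SirT7-/- library of normal medium was thus below every wild-type one, at a log2 change of -2.15 ± 0.18 without KO-NT 4 (edgeR adjusted p = 0.0201, where 0.0331% of genes passed) and -2.36 ± 0.269 with it (adjusted p = 0.106). The difference of the genotype effect between media had an adjusted p of 0.68 over all 14 libraries and of 1 once KO-GS 3 and KO-NT 4 were left out.

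Of 21 tested genes around Sirt7, itself included, 3 were apart and higher in the 6 libraries (14.3% against 4.82% of all genes) and Sirt7 alone was apart and lower. In the 5 libraries 4 were apart and higher (19% against 7.3% of all genes; P4hb, Rac3, Dcxr and Fasn) and 3 lower (14.3% against 9.58%; Sirt7, Pcyt2 and Anapc11). The neighbour Arhgdia had 532, 549 and 603 CPM in WT-GS and 557, 1180 and 657 CPM in KO-GS, with KO-GS 2 alone high. In normal medium Arhgdia had 594 to 841 CPM in WT-NT and 1540 to 1670 CPM in KO-NT 1 to 3, while the library labelled KO-NT 4 had 635 CPM. It rose there without KO-NT 4 (edgeR adjusted p = 0.0415) and had an adjusted p of 1 with it. P4hb, a protein disulphide isomerase of the ER, behaved unevenly too, at 2620, 2400 and 2380 CPM in WT-GS and 2760, 4010 and 1460 CPM in KO-GS. In normal medium P4hb had 1360 to 1720 CPM in WT-NT and 3410, 3430, 3420 and 2560 CPM in KO-NT 1 to 4, with no overlap. It rose there without KO-NT 4 (log2 change 1.16 ± 0.101, edgeR adjusted p = 0.0201) and had an adjusted p of 0.174 with it. In glucose-free medium neither gene passed the test, and without KO-GS 2 the fitted log2 change turned from 0.63 to -0.0044 for Arhgdia in the 5 libraries and from 0.15 to -0.23 for P4hb in the 6.

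**Figure D2:**
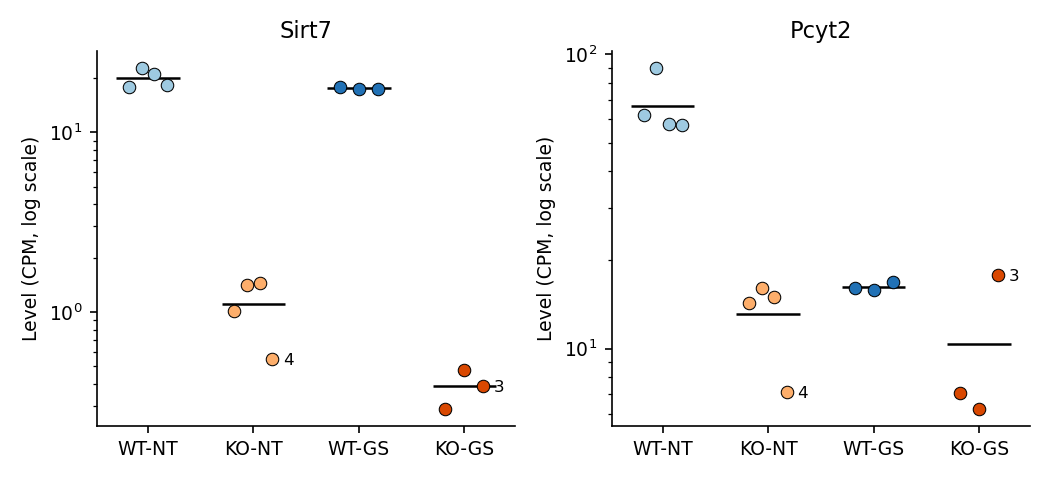
Levels of Sirt7 (left) and Pcyt2 (right) in CPM on log axes; points are libraries, lines are group means, and 3 and 4 mark the libraries labelled KO-GS 3 and KO-NT 4. Sirt7 is low in all SirT7-/- libraries, at 0.291 to 1.45 CPM, while Pcyt2 in KO-GS 1 and 2 (7.04 and 6.25 CPM) sits near KO-NT 4 (7.11 CPM) and the library labelled KO-GS 3 (17.8 CPM) near KO-NT 1 to 3.

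Cldn12, a member of the claudin family of tight-junction proteins, fell in the 5 libraries. It had 50.5, 55.4 and 52.8 CPM in WT-GS 1 to 3, 14.4 and 15.7 CPM in KO-GS 1 and 2 and 42.6 CPM in the library labelled KO-GS 3. The log2 change was -1.81 ± 0.0924 in the 5 libraries (edgeR adjusted p = 0.0192) and -1.14 ± 0.421 in the 6 (adjusted p = 0.81). Cldn12 also fell into 2 levels within wild-type cells of normal medium, at 16.9, 12.4 and 10.2 CPM in WT-NT 1, 2 and 4 and 47 CPM in WT-NT 3, and all KO-NT libraries had 41.4 to 42.6 CPM. Low levels thus occurred in both genotypes.

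Raver1-fdx1l and Fdx1l, the other calls of the 5 libraries, are symbols that share sequence, since the first is a read-through of Raver1 into Fdx1l. Raver1-fdx1l had 26.8, 24.7 and 42 CPM in WT-GS, 0.0364 and 0.016 CPM in KO-GS 1 and 2 and 19.6 CPM in the library labelled KO-GS 3 (edgeR adjusted p = 0.0192 in the 5 libraries). Fdx1l, which encodes a mitochondrial ferredoxin, had a count of 0 in all 3 WT-GS libraries, which allows up to 0.0504 CPM, and 27.3 and 24 CPM in KO-GS 1 and 2 (adjusted p = 0.0258). It was again at 0 in the library labelled KO-GS 3. The sum of both symbols was 26.8, 24.7 and 42 CPM in WT-GS and 27.3, 24 and 19.6 CPM in KO-GS, so the groups overlapped. The same switch occurred within wild-type cells of normal medium, where Fdx1l was at 0 in WT-NT 1 and 4 and at 22.2 and 18.5 CPM in WT-NT 2 and 3. Both calls are therefore uncertain as a change of either gene. Tdg, a DNA glycosylase, and its near-copy Gm9855 were another such pair, with sums of 17 to 18.3 CPM in WT-GS and 16.1 to 18.8 CPM in KO-GS.

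Below the threshold, named genes were those with the smallest p among genes of at least 5 CPM whose groups did not overlap in the fit concerned. That the groups were apart in that fit was thus a condition of the choice and is no result. None of the genes in this paragraph passed the edgeR test (adjusted p = 0.81 for each in the 6 libraries). Rassf2, a Ras-association protein that acts in growth control and apoptosis, had 4.67, 3.38 and 4.24 CPM in WT-GS and 8.85, 9.81 and 11.5 CPM in KO-GS. All SirT7-/- libraries were higher than all wild-type libraries, at a log2 change of 1.29 ± 0.182 (DESeq2 adjusted p = 1.87e-06). Syne2, a nesprin that ties the nuclear envelope to the cytoskeleton, had 30.1, 31.4 and 31.4 CPM in WT-GS and 43.8, 50.4 and 58 CPM in KO-GS. Its log2 change was 0.71 ± 0.115 (DESeq2 adjusted p = 0.00323), again with the groups apart. Cbr2, a carbonyl reductase, was at 2.05 to 2.8 CPM in WT-GS and 4.76, 6.03 and 10 CPM in KO-GS. Sema3f, a secreted semaphorin, was at 3.98 to 5.54 CPM in WT-GS and 7.04, 13.4 and 15.1 CPM in KO-GS. Grik5, a kainate receptor subunit, was at 8.91 to 12.7 CPM in WT-GS and 16 to 17.4 CPM in KO-GS. Plin4, a lipid-droplet coat protein named from the 5 libraries, was at 3.53 to 3.99 CPM in WT-GS and 6.31, 7.28 and 5.31 CPM in KO-GS. In these 6 genes the library labelled KO-GS 3 was above all WT-GS libraries, as the choice required of those named from the 6 libraries. Wild-type levels in normal medium spanned the level of that library for Cbr2 (3.95 to 22.4 CPM) and Grik5 (12.5 to 32.5 CPM). They did so for Rassf2 too but not for Plin4, as given below. The part of medium in the height of that library was not tested. Cinp, a partner of cyclin-dependent kinases in DNA replication, was named from the 5 libraries and overlapped in the 6, at 22.3 to 24.4 CPM in WT-GS and 31.5, 36.1 and 19.5 CPM in KO-GS.

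Among the genes with lower levels, none other than those named above passed the edgeR test either. Ablim1, an actin-binding protein, had 82.6, 67.9 and 107 CPM in WT-GS and 23, 26.5 and 44.9 CPM in KO-GS. Its groups did not overlap, at a log2 change of -1.45 ± 0.287 in the 6 libraries and -1.78 ± 0.208 in the 5 (DESeq2 adjusted p = 0.0034 and 3.19e-13). Pfkfb3, the enzyme that makes fructose 2,6-bisphosphate and so activates glycolysis, had 73.7, 110 and 64.3 CPM in WT-GS and 32.7, 36.2 and 46.4 CPM in KO-GS. The log2 change of Pfkfb3 was -1.11 ± 0.241 in the 6 libraries and -1.26 ± 0.264 in the 5, with DESeq2 adjusted p of 0.032 and 0.00182. Sema7a, a membrane-anchored semaphorin, had 22.4, 38.2 and 26.4 CPM in WT-GS and 12.2, 15.6 and 11.9 CPM in KO-GS. Sphk1, the sphingosine kinase, had 24.8, 26.3 and 28.9 CPM in WT-GS and a narrow 19.8, 18.2 and 18.7 CPM in KO-GS, at a log2 change of -0.50 ± 0.0998. For these 4 genes the library labelled KO-GS 3 was below all WT-GS libraries, as the choice required of those named from the 6 libraries. It lay with KO-GS 1 and 2 for Sema7a and Sphk1. For Ablim1 and Pfkfb3 it lay above both of them, between KO-GS 1 and 2 and WT-GS. There it was also within the WT-NT range, which was 22.3 to 49 CPM for Ablim1 and 20.4 to 47 CPM for Pfkfb3.

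Of these genes, Plin4 was also apart by genotype in normal medium, at 1.39 to 3.73 CPM in WT-NT and 4.11 to 8.09 CPM in KO-NT (log2 change 0.96 ± 0.342, edgeR adjusted p = 1). Ablim1, Pfkfb3 and Rassf2 overlapped there. Ablim1 had 22.3 to 49 CPM in WT-NT and 34.5 to 89.5 CPM in KO-NT, where the highest value was the library labelled KO-NT 4. Pfkfb3 had 20.4 to 47 CPM in WT-NT and 14.1 to 58.1 CPM in KO-NT, and Rassf2 9.13 to 27.8 CPM against 6.71 to 15.8 CPM. The test of the difference of the genotype effect between media called none of the genes named here. The smallest adjusted p was 0.68 over the 14 libraries and 1 over the 12 left without KO-GS 3 and KO-NT 4.

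**Figure D3:**
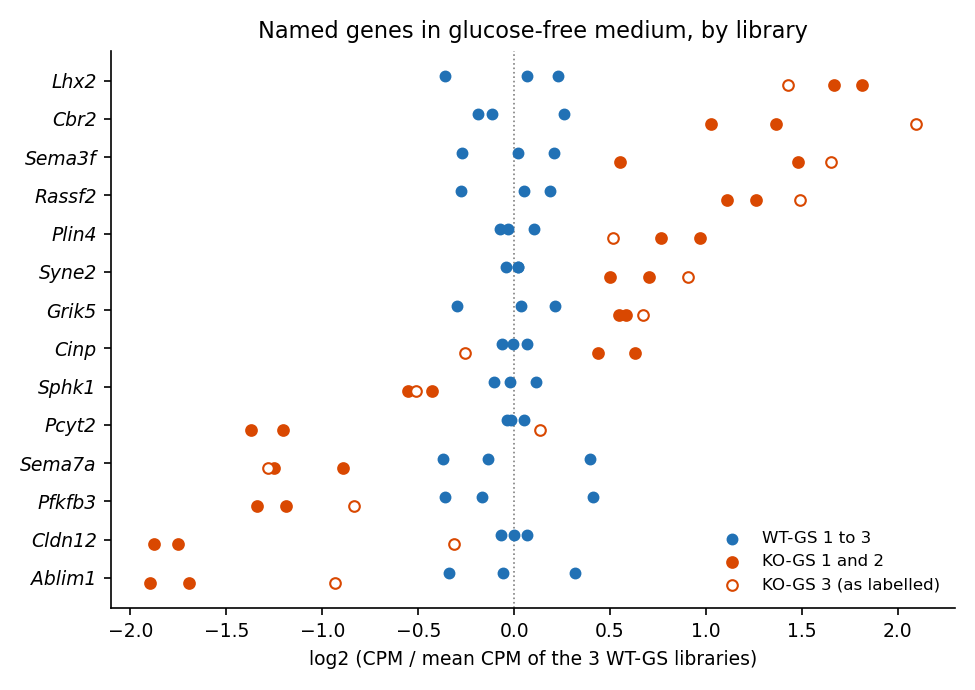
Level of 14 named genes in each glucose-free library, as log2 of CPM over the mean of the 3 WT-GS libraries. Blue points are WT-GS, filled orange points KO-GS 1 and 2 and open points the library labelled KO-GS 3, which lies with KO-GS 1 and 2 for Rassf2, Syne2, Sphk1 and Sema7a and with or nearer to WT-GS for Pcyt2, Cinp and Cldn12.

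Genes for RNA polymerase I and for assembly of ribosomal subunits are the group closest to the known role of SirT7. RNA polymerase I transcribes ribosomal RNA, and the assembly factors fold, modify and cut it in the nucleolus. None of 53 tested members passed the edgeR test, but 20 (37.7%) were apart and lower in SirT7-/- cells in the 6 libraries and none was apart and higher, against 6.18% and 4.82% of all genes. Among genes with a mean of at least 20 CPM in WT-GS, 9.08% were apart and lower and 2.88% higher. In the 5 libraries 21 members (39.6%) were apart and lower, against 9.58% of all genes and 13.1% of those of at least 20 CPM (4.16% of these were higher). With library totals as the scaling, 15 members were apart and lower in each set of libraries. Of all genes tested, that scaling gave 558 of 14972 apart and lower in the 6 libraries and 897 of 15156 in the 5. The median log2 change of the list was -0.20 in the 6 libraries and -0.086 in the 5, against 0.0073 and 0.0061 over all genes.

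The members apart and lower comprised subunits of the polymerase (Polr1d, Polr1e, Twistnb and Polr2k), nucleolar scaffold and box C/D or H/ACA partners (Ncl, Nolc1, Nop58), and factors of the small and large subunit precursors (Utp15, Pwp2, Wdr43, Wdr75, Rrp9, Nop14, Pno1, Ltv1, Noc3l, Nop16, Ddx10, Gnl3), with the nucleolar regulator Mybbp1a. Their log2 changes ran from -0.42 to -0.15 in the 6 libraries, and from -0.27 to -0.040 for the 21 of the 5 libraries, so most were small. Noc3l, a factor of large-subunit maturation, had 58.4, 57.8 and 56.6 CPM in WT-GS and 48, 51.5 and 37.2 CPM in KO-GS. Its log2 change was -0.34 ± 0.138 in the 6 libraries and -0.20 ± 0.0671 in the 5 (edgeR adjusted p = 0.81 and 1). Polr1d, a subunit shared by RNA polymerases I and III, had 91.6, 89.7 and 99.3 CPM in WT-GS and 86.2, 76.2 and 70.5 CPM in KO-GS. Ncl, the abundant nucleolar protein nucleolin, had 1050, 1010 and 998 CPM in WT-GS, 985 and 986 CPM in KO-GS 1 and 2 and 680 CPM in the library labelled KO-GS 3. Ubtf, which recruits RNA polymerase I to its promoter, was a member that overlapped, at 88.5, 59.8 and 86.4 CPM in WT-GS and 95.8, 78.5 and 121 CPM in KO-GS.

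The libraries differed in position along the starvation response at the same time. The summed level of the list was 6439 to 6857 CPM in WT-GS, 6526 and 6368 CPM in KO-GS 1 and 2 and 4502 CPM in the library labelled KO-GS 3, against 4165 to 5625 CPM in WT-NT. Noc3l had 27.9 to 36.9 CPM in WT-NT, 30.7 to 33.7 CPM in the first 3 KO-NT libraries and 51.1 CPM in the library labelled KO-NT 4. KO-GS 1 and 2, at 0.908 and 0.904, were short of the WT-GS position of 1. The axis genes were chosen and scaled on the wild-type libraries themselves, so other libraries can fall short of 1 for that reason alone. The part of position in the result was not tested. In normal medium 3 members were apart and higher in SirT7-/- cells and none lower (5.66%; of all genes 1.49% were higher and 1.56% lower). Without KO-NT 4 there were 4 (7.55%; of all genes 4.79% and 4.51%). The list's median log2 change there was 0.14 with KO-NT 4 and 0.10 without it.

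**Figure D4:**
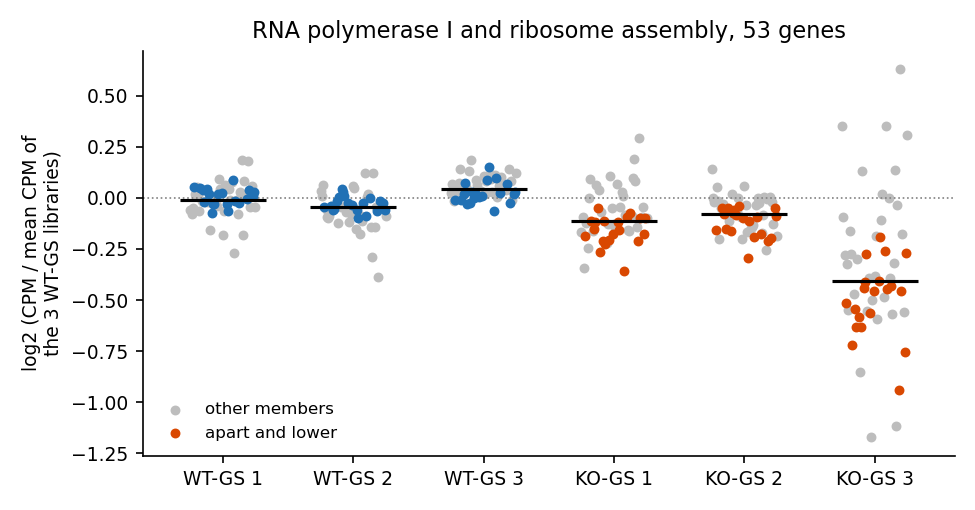
Levels of 53 genes for RNA polymerase I and ribosome assembly in each glucose-free library, as log2 of CPM over the mean of WT-GS; each point is a gene, coloured where it was apart and lower in the 6 libraries, and lines are medians. The medians are -0.11 and -0.078 in KO-GS 1 and 2 and -0.41 in the library labelled KO-GS 3, against -0.045 to 0.045 in WT-GS.

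Many genes of ribosome production carry an E-box, the site of MYC and related factors, so the promoters of the members were read. The letters CACGTG, which are the same on both strands, were searched in RefSeq promoters of GRCm38.p6, from 250 bases before to 50 after the listed start. They were found in 11 of 46 tested members with a promoter (23.9%), in 4 of 19 of those apart and lower (21.1%) and in 7.24% of 27025 promoters. A match is a description of these letters only. The 4 matches among members apart and lower are shown because each lies just after the listed start, its first base being base 29, 41, 38 and 18 of the transcript in Ltv1, Mybbp1a, Pno1 and Wdr43. The capitals mark the E-box, and the stretches are written 5′ to 3′ on the gene's strand. They are chr10:13193092-13193121 (minus strand), chr11:72441355-72441376 (plus), chr11:17211540-17211564 (minus) and chr17:71616220-71616249 (plus).
Ltv1: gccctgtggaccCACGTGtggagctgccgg
Mybbp1a: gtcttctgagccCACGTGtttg
Pno1: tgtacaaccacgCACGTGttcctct
Wdr43: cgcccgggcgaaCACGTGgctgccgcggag
Pno1, an assembly factor of the small subunit, had 77.3, 74.2 and 76.6 CPM in WT-GS and 67.3, 71 and 55.4 CPM in KO-GS, with no overlap. Mybbp1a had 369, 360 and 393 CPM in WT-GS and 345, 336 and 241 CPM in KO-GS. Myc itself had 92.9, 93.9 and 92.1 CPM in WT-GS and 81.2, 84.7 and 45.3 CPM in KO-GS, at a log2 change of -0.16 ± 0.0594 in the 5 libraries (edgeR adjusted p = 1).

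Proteins of the mitochondrial ribosome and of the respiratory chain, which make and form the machinery of oxidative phosphorylation, had no member that passed the test. Of 76 mitochondrial ribosomal protein genes, 10 (13.2%) were apart and lower in the 6 libraries and none higher, and 15 (19.7%) were lower and 1 higher in the 5. Of all genes 6.18% and 9.58% were apart and lower, and of those of at least 20 CPM 9.08% and 13.1%, so the shares are not far from that of genes at such levels. With library totals as the scaling, 5 and 10 of the 76 were apart and lower, against 558 of 14972 and 897 of 15156 of all genes tested. Mrpl43 had 28.8, 30 and 30.2 CPM in WT-GS and 27.7, 25.8 and 24.9 CPM in KO-GS. Of 51 respiratory chain subunits 6 (11.8%) were apart and lower in the 6 libraries and 12 (23.5%) in the 5, where 1 was higher. The medians of the 2 lists in the 5 libraries were -0.055 and -0.059. The 80 cytosolic ribosomal proteins had no member apart in either set, but 79 were below 0 in the 6 libraries and 69 in the 5. Their medians were -0.21 and -0.066, against 0.0073 and 0.0061 over all genes. Summed, they had 47340 to 58810 CPM in WT-GS, 56310 and 46430 CPM in KO-GS 1 and 2 and 35640 CPM in the library labelled KO-GS 3. That library lay within the WT-NT range of 34520 to 54660 CPM.

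Glycolytic genes, which split glucose to pyruvate, had 3 of 22 members apart and lower in the 6 libraries, none higher and none that passed the test. That is 13.6%, against 6.18% of all genes and 9.08% of those of at least 20 CPM. In the 5 libraries 4 (18.2%) were lower and none higher, against 9.58% and 13.1% lower. The 3 of the 6 libraries were Pfkfb3, given above, Hk2 and Pgk1. Hk2, the hexokinase of the first step, had 109, 145 and 109 CPM in WT-GS and 107, 97.2 and 70.2 CPM in KO-GS. Pgk1, a later enzyme that yields ATP, had 904, 1120 and 888 CPM in WT-GS and 846, 819 and 613 CPM in KO-GS. In WT-NT Hk2 had 67.6 to 104 CPM and Pgk1 538 to 694 CPM. The library labelled KO-GS 3 lay within both ranges.

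Targets of p53, the stress-activated tumour suppressor, had 5 of 26 members apart and lower (19.2%) and 1 apart and higher (3.85%) in the 6 libraries, with none passing the test. Of all genes 6.18% were lower and 4.82% higher, and of those of at least 20 CPM 9.08% and 2.88%. In the 5 libraries 6 members (23.1%) were lower and 1 (3.85%) higher. Of all genes 9.58% and 7.3% were so there, and of those of at least 20 CPM 13.1% and 4.16%. Mdm2, the ubiquitin ligase that limits p53, had 340, 332 and 323 CPM in WT-GS and 284, 286 and 275 CPM in KO-GS, a log2 change of -0.24 ± 0.0862. Eda2r, a death-domain receptor, had 141, 120 and 131 CPM in WT-GS and 109, 109 and 114 CPM in KO-GS. The library labelled KO-GS 3 lay with KO-GS 1 and 2 for both genes. Plk2, a kinase, had 235 to 268 CPM in WT-GS and 194 to 225 CPM in KO-GS. Polk, a DNA polymerase for damaged templates, and Rrm2b, a ribonucleotide reductase subunit, were also apart and lower, with log2 changes of -0.32 and -0.27. Zmat3, an RNA-binding target, was apart and higher, at 144 to 156 CPM in WT-GS and 160 to 203 CPM in KO-GS. The list as a whole was centred near 0, with medians of 0.052 in the 6 libraries and -0.045 in the 5. In normal medium Mdm2 overlapped, at 138 to 253 CPM in WT-NT and 121 to 280 CPM in KO-NT, where the highest value was the library labelled KO-NT 4.

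Hox genes, whose order along the chromosome follows the body axis and the limb from base to tip, had 5 of 35 members apart and higher in the 6 libraries (14.3% against 4.82% of all genes). All 5 are late genes of the HoxA and HoxD clusters, known for expression in the distal limb: Hoxd10, Hoxd11, Hoxd12, Hoxd13 and Hoxa13. Hoxd13 had 25.3, 9.34 and 16 CPM in WT-GS and 26.9, 38.5 and 27.2 CPM in KO-GS, so the groups were close to touching, at a log2 change of 0.87 ± 0.361 (edgeR adjusted p = 0.81). Hoxd11 had 2.12 to 4.26 CPM in WT-GS and 5.45, 8.39 and 6.07 CPM in KO-GS. Of 36 Hox genes tested in the 5 libraries, 5 were apart and higher (13.9% against 7.3% of all genes) and 6 lower (16.7% against 9.58%).

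Other transcription factors of limb and body patterning had 4 of 70 members apart and higher (5.71% against 4.82% of all genes) and 2 apart and lower (2.86% against 6.18%). Those higher were Lhx2, Msx1, Pitx1 and Tbx5, and those lower Foxf1 and Lhx8, at log2 changes of -0.91 and -1.57. Among the 5 libraries 5 were higher (7.04% against 7.3% of all genes) and 4 lower (5.63% against 9.58%). Lhx2 had 1.34, 0.891 and 1.2 CPM in WT-GS and 3.64, 4.02 and 3.08 CPM in KO-GS, at a log2 change of 1.64 ± 0.251 (DESeq2 adjusted p = 2.44e-06; edgeR 0.81). Msx1 had 1.46 to 3.12 CPM in WT-GS, 4.64 and 6.91 CPM in KO-GS 1 and 2 and 15.9 CPM in the library labelled KO-GS 3. In normal medium such genes varied within a genotype: Hoxd13 had 7.22, 27, 4.19 and 19.5 CPM in WT-NT 1 to 4 and 18.7 to 33.2 CPM in KO-NT. The spread among wild-type libraries there was thus as wide as the gap between genotypes in glucose-free medium.

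Antioxidant genes under the transcription factor NRF2 had 6 of 35 members apart and higher in both sets of libraries (17.1% against 4.82% and 7.3% of all genes), 1 lower and none that passed the test. Gsr, the glutathione reductase, had 23, 16.4 and 21.9 CPM in WT-GS and 28.4, 23.9 and 39.4 CPM in KO-GS. The glutathione transferase Gstm1 had 10.3, 10.6 and 10.5 CPM in WT-GS and 16.6, 11.4 and 20.3 CPM in KO-GS. In both genes the library labelled KO-GS 3 was the highest. It lay within the WT-NT range, which was 30.1 to 44.6 CPM for Gsr and 18.5 to 31.3 CPM for Gstm1. Another of the 6, Gsta3, had very low levels, at 0 to 0.0606 CPM in WT-GS and 0.171 to 0.352 CPM in KO-GS. The median of the list was 0.14 in the 6 libraries and 0.023 in the 5.

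Genes of second messenger signalling, which relay signals by cyclic nucleotides, calcium and lipid products, had no member that passed the test among 66. Of them 4 (6.06%) were apart and higher and 2 (3.03%) apart and lower in the 6 libraries, shares near the background. Plce1, a phospholipase C, had 14.5, 7.91 and 9.82 CPM in WT-GS and 15.1, 18.4 and 22.2 CPM in KO-GS. Camkk2, a calcium-dependent kinase that activates AMPK, had 13.9 to 14.7 CPM in WT-GS, 15.5 and 16.9 CPM in KO-GS 1 and 2 and 23.8 CPM in the library labelled KO-GS 3. Pde4b, which breaks down cyclic AMP, had 14 to 15.2 CPM in WT-GS, 16.6 and 16.2 CPM in KO-GS 1 and 2 and 42.5 CPM in the library labelled KO-GS 3. The other members apart were Dgkg (higher), Plcb4 and Ryr2 (both lower). In 5 libraries 7 members were apart and higher (10.4% against 7.3% of all genes) and 3 lower (4.48% against 9.58%).

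Among sirtuins, macroH2A histones and enzymes that add or remove ADP-ribose, Sirt7 alone of 27 genes passed the test. Besides it Macrod1, which removes ADP-ribose, was apart in the 6 libraries, at 1.35 to 1.51 CPM in WT-GS and 3.16, 1.69 and 1.83 CPM in KO-GS. Parp14, an ADP-ribosyltransferase induced by interferon, varied widely, at 5.48 to 10.5 CPM in WT-GS and 21, 2.92 and 22.7 CPM in KO-GS. H2afy, which encodes macroH2A1, had 79.6, 78.3 and 82.5 CPM in WT-GS, 79.1 and 74.4 CPM in KO-GS 1 and 2 and 58.6 CPM in the library labelled KO-GS 3. H2afy2, which encodes macroH2A2, had 13.5 to 16.6 CPM in WT-GS and 15.3, 18 and 23.5 CPM in KO-GS. Sirt1 was at 35 to 38.2 CPM in WT-GS and 38.2 CPM in both KO-GS 1 and 2, and at 21.2 CPM in the library labelled KO-GS 3.

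Several lists showed a difference in the 6 libraries that came with that library. Genes of sterol synthesis, the pathway to cholesterol, had a median log2 change of 1.09 in the 6 libraries, with 24 of 24 tested members above 0, and of 0.052 in the 5, with 14 above 0. For fatty acid synthesis the medians were 0.56 and 0.035. Fasn, the fatty acid synthase and also a neighbour of Sirt7, had 165, 177 and 183 CPM in WT-GS, 190 and 203 CPM in KO-GS 1 and 2 and 471 CPM in the library labelled KO-GS 3. Chaperones of the ER went the other way, with medians of -0.46 and -0.074. Hspa5, the central ER chaperone BiP, had 7550, 6530 and 6410 CPM in WT-GS, 6060 and 5700 CPM in KO-GS 1 and 2 and 1060 CPM in the library labelled KO-GS 3. In WT-NT it had 1040 to 1470 CPM. Genes of the G2 and M phases had medians of 0.49 and 0.11, and no member of that list was apart in either set.

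**Figure D5:**
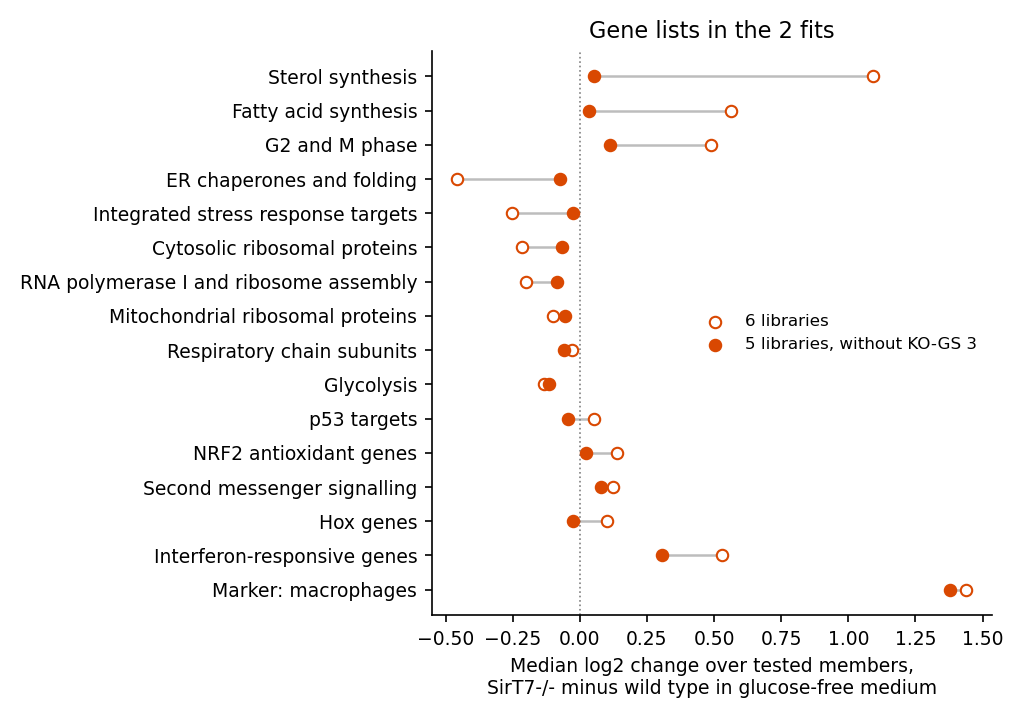
Median log2 change (SirT7-/- minus wild type, glucose-free medium) over the tested members of 16 gene lists, with all 6 libraries (open) and with the 5 without the library labelled KO-GS 3 (filled). Sterol synthesis moves from 1.09 to 0.052 and ER chaperones from -0.46 to -0.074, while macrophage markers, none of them apart, stay at 1.44 and 1.38.

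Markers of fibroblast mesenchyme were high in all 6 libraries, summing to 25320 to 43920 CPM over 12 genes, the highest being the library labelled KO-GS 3. Markers of macrophages were present as well. Their summed level over 21 genes was 429, 19.2 and 364 CPM in WT-GS 1 to 3 and 1266, 136 and 775 CPM in KO-GS 1 to 3. The median log2 change was 1.44 in the 6 libraries and 1.38 in the 5, yet none of the 21 was apart, and replicate 2 was the lowest of either genotype. In normal medium the macrophage markers went the other way, with all 21 below 0. Their median there was -0.97 with KO-NT 4 and -0.93 without it. Genes that respond to interferon had medians of 0.53 and 0.31, none of 51 apart in the 6 libraries and none that passed the test. In normal medium their medians were -0.23 with KO-NT 4 and -0.40 without it. The link of these genes to the macrophage level was not tested. In bulk RNA fewer cells of a type and less RNA per cell cannot be told apart. Skeletal muscle markers summed to 104 to 256 CPM in WT-GS and 95 to 221 CPM in KO-GS, epithelial markers to 43.5 to 54.9 and 38.9 to 103 CPM, and red blood cell markers to under 1 CPM in every library. Of 9 epithelial markers tested in the 6 libraries, the keratins Krt18 and Krt7 were apart and higher (22.2% against 4.82% of all genes). The desmosome protein Pkp1 was apart and lower (11.1% against 6.18%), and 5 of the 9 markers were above 0. Pkp1 had 4.68 to 7.83 CPM in WT-GS and 1.8 to 4.52 CPM in KO-GS. Krt18 had 3.15 to 4.39 CPM in WT-GS and 5.32 to 8.53 CPM in KO-GS, and Krt7 had 4.56 to 6.57 and 7.05 to 26.2 CPM.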

How the data were processed

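RNA-seq of total RNA from mouse embryonic fibroblasts gave 14 libraries. The submitters' processing notes name StringTie 1.3.3, HISAT2 2.1.0, Trimmomatic 0.36, FastQC 0.11.3, DESeq2 1.18.1, SAMtools and the mm9 build; annotation and strand setting are not given in the sources used here. The authors deposited whole-number estimated counts of 24015 symbols. Between 53.5 and 61.7% of small values in each library were odd, unlike a plain tally of reads.

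Counts were fitted with edgeR 4.0.16 (R 4.3.3; quasi-likelihood F-test, robust; TMM; filterByExpr, minimum count 10 and total 15) on the 6 libraries alone and on 5 without KO-GS 3, with no covariate. Benjamini-Hochberg adjustment ran over all genes tested, and a gene was called under 0.05. The SE was worked back from the F statistic. Levels are CPM on TMM-scaled totals of all 14 libraries; a count of 0 was taken to allow 3 counts, which covers counting error only. Alternatives used DESeq2 1.42.0, limma-voom (limma 3.58.1), other scalings and filters, all groups, a replicate block and leaving out each library.

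Named genes are Sirt7 and called genes of at least 5 CPM with no overlap, filled to 5 per direction by smallest p, plus up to 4 members per list and fit, members counted in a list, and controls; predicted and clone symbols were left out (Gm9855 is named only beside Tdg). The 42 lists (1403 of 1405 entries matched), the members and the tests were chosen with earlier results of these data known. A member of these lists is not reported here. The scripts were tested on simulated data.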

Additional observations from a re-analysis of the deposited data

Results flagged for a closer look

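In groups of 4 libraries, 8 values of genes whose normal-medium levels are given here lay far from the other 3, by a gap that chance gives in about 1 of 20 groups. Pcyt2 had 89.8 CPM in WT-NT 2, against 57.2 to 62.3 CPM in the other wild-type libraries of normal medium, and Hspa5 had 1040 CPM in WT-NT 4, against 1440 to 1470 CPM. The other 6 were in the library labelled KO-NT 4, set against KO-NT 1 to 3. There Ablim1 had 89.5 CPM against 34.5 to 37 CPM, Noc3l 51.1 CPM against 30.7 to 33.7 CPM, Mdm2 280 CPM against 121 to 142 CPM and Hspa5 6250 CPM against 1460 to 1560 CPM. Arhgdia and P4hb were low there, at 635 CPM against 1540 to 1670 CPM and 2560 CPM against 3410 to 3430 CPM. Over all 96 genes examined, 32 values in 192 groups showed such a gap, 19 of them in the library labelled KO-NT 4, which lay at 0.878 along the starvation response. The glucose-free groups have 3 libraries each and were not examined in this manner.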

How the results depend on the processing

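With 3 or 2 SirT7-/- libraries, the count of calls rests on single libraries. In the 6 libraries edgeR called 1 gene, and limma-voom, the other scalings, both other filters and the fit on all groups did too; DESeq2 called 18. Leaving out each library gave 0 to 4 calls, with 0 without WT-GS 1 or WT-GS 3, where the adjusted p of Sirt7 was 0.056 and 0.0504, and 4 without KO-GS 3. In the 5 libraries edgeR called 4 genes, DESeq2 31 and the fit on all groups 1, and leaving out each library gave 0 to 10, the omission of WT-GS 1 or 2 giving 0, of WT-GS 3 giving 1, of KO-GS 1 giving 10 and of KO-GS 2 giving 7. There the adjusted p of Sirt7 ranged up to 0.197. The cause of the differences between tools was not tested. Same-numbered libraries correlated at 0.385, 0.5 and 0.00103 in their deviations in the 6 libraries, the last pair holding KO-GS 3. In the 5 libraries replicates 1 and 2 correlated at 0.506 and 0.581. Crossed pairs of replicates 1 and 2 in the 6 libraries were at -0.454 and -0.447. The labels do not say whether the numbers pair the libraries, and the main fits left pairing out. With the replicate block edgeR called 0 genes in the 6 libraries (smallest adjusted p = 0.0541) and 5 in the 5.

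The fitted direction turned for few named genes, none of them called: in the 6 libraries, over the libraries left out, Sirt1 ranged from -0.29 to 0.085, Sirt6 from -0.26 to 0.023 and Parp1 from -0.16 to 0.034, each above 0 without KO-GS 3, and P4hb from -0.23 (without KO-GS 2) to 0.46. In the 5 libraries Sirt6 ranged from -0.11 to 0.15 and Parp1 from -0.079 to 0.14, Txnip from -1.03 and Parp14 from -1.35 (both without KO-GS 1) to 1.28 and 1.49, and Arhgdia from -0.0044 (without KO-GS 2) to 1.08. Without WT-GS 2, Sirt6 was at -0.052 and Parp1 at -0.0062. Scalings of the list counts, the background of at least 20 CPM and normal medium without KO-NT 4 were chosen after seeing the data.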

Other observations

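Other lists held single genes that were apart in the 6 libraries without passing the edgeR test (adjusted p = 0.81 in the 6 libraries for each). Of all genes tested, 4.82% were apart and higher and 6.18% apart and lower. The shares were 5.13% and 7.69% for IGF and growth factor signalling and 5.56% each way for hypoxia targets. For TGF-beta targets and contractile genes they were 9.09% and 6.06%. Igfbp2, which binds insulin-like growth factors, had 25.1, 24.1 and 26.7 CPM in WT-GS and 35.1, 53.7 and 36 CPM in KO-GS. Id2, an inhibitor of helix-loop-helix factors and a target of BMP and TGF-beta signalling, had 33.7, 29.9 and 34.9 CPM in WT-GS and a narrow 40.9, 41.6 and 40.3 CPM in KO-GS. Epas1, the hypoxia-inducible factor HIF-2 alpha, had 7.98, 8.15 and 9.06 CPM in WT-GS and 14.8, 11 and 23.4 CPM in KO-GS. In WT-NT Igfbp2 had 9.16 to 54.5 CPM, Id2 32.4 to 35.3 CPM and Epas1 6.26 to 17.6 CPM. The library labelled KO-GS 3 lay within the range of Igfbp2 and above those of Id2 and Epas1.

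Among genes that were lower, the collagen cross-linking enzyme Loxl2 had 900, 1160 and 1060 CPM in WT-GS and 678, 776 and 864 CPM in KO-GS. Lamb1, a laminin chain, had 891, 876 and 954 CPM in WT-GS and 798, 678 and 592 CPM in KO-GS. Psph, an enzyme of serine synthesis and a target of the integrated stress response, had 102, 106 and 110 CPM in WT-GS, 91.1 and 90.9 CPM in KO-GS 1 and 2 and 47.6 CPM in the library labelled KO-GS 3. Klf4, an immediate early transcription factor, had 267, 274 and 298 CPM in WT-GS and 247, 217 and 82.9 CPM in KO-GS. In WT-NT Loxl2 had 725 to 1220 CPM, Lamb1 475 to 680 CPM and Klf4 42.9 to 80.9 CPM. The library labelled KO-GS 3 lay within the ranges of Loxl2 and Lamb1 and just above that of Klf4. Apart and lower were 9.3% of other extracellular matrix genes, 11.4% of integrated stress response targets and 7.14% of immediate early genes. Apart and higher were 6.98%, 2.86% and 3.57%.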
